A study of Bos grunniens with 9 samples.

Results

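The nuclear-encoded subunits of the mitochondrial respiratory chain are the proteins of complexes I to V that are made from nuclear genes and imported into mitochondria. They were chosen here by gene symbol alone, from the annotation of the footprint tables: NDUFA, NDUFB, NDUFC, NDUFS and NDUFV genes, the SDH genes, UQCR genes and CYC1, the COX genes numbered from COX4 to COX8, and the ATP5 genes of the F, M, P and IF groups. The rule found 89 symbols among 21652 gene identifiers, 36 for complex I, 4 for complex II, 9 for complex III, 20 for complex IV and 20 for complex V. NDUFA4 and its paralog NDUFA4L2, once assigned to complex I, were placed with complex IV. The 89 symbols lay on 153 identifiers, and each of the 37 symbols with several identifiers was read at the one with the highest mean count. In all, 83 symbols passed the filter on low counts and entered the tests. COX6C, COX7B2, COX8B, COX6A2, COX8C and ATP5MPL did not pass, and the last 3 were at 0 in every library. ATP5MD and ATP5MPL are older names of ATP5MK and ATP5MJ, so these genes stand in the table under both names.

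Ribosome footprints, the pieces of mRNA that ribosomes protect from RNase digestion, were sequenced from ovaries of yaks aged 6 years in anestrus (April), estrus (August) and pregnancy (December), with 3 libraries per stage. Each stage was taken in a month of its own, so reproductive stage and season cannot be told apart. No genotype or agent separates the groups, and the labels do not tie a library to an animal, so p-values measure the spread between these libraries. No mRNA measurement was used, so a footprint level holds mRNA amount and translation together.

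Complex I takes electrons from NADH and complex II from succinate, complex III passes them to cytochrome c, complex IV reduces oxygen with them, and complex V makes ATP from the proton gradient that complexes I, III and IV build. Complex II is wholly nuclear-encoded, whereas the other complexes also hold subunits made inside mitochondria from mitochondrial DNA. In the ovary, granulosa, theca and luteal cells carry the first step of steroid synthesis inside mitochondria, and several complex IV subunits exist as a ubiquitous form and a form known from heart and skeletal muscle, testis or lung.

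Libraries held 1.47 M to 28.9 M counts. A floor of 3 counts corresponded to 0.104 CPM (counts per M) at the greatest depth and 2.04 CPM at the smallest. Pregnancy 3, the shallowest, lay at the end of the first principal component of all genes (30.3% of the variance) and had the lowest median correlation with the other libraries (0.88). Anestrus 2, the deepest, lay at the end of the second (18.2%). All 10 granulosa and all 9 theca and luteal markers had counts in every library. The summed granulosa markers ranged over 1258 to 5227 CPM in anestrus, 2243 to 8091 CPM in estrus and 1625 to 6560.5 CPM in pregnancy. The summed theca and luteal markers ranged over 564 to 2001 CPM in anestrus, 720.3 to 2997 CPM in estrus and 1339 to 6112 CPM in pregnancy. Of 9 oocyte genes, 3 passed the filter and 7 were at 0 in at least 1 library (BMP15, DAZL, DDX4, FIGLA, GDF9, NLRP5 and ZP4), with a sum of 1.35 to 20.4 CPM.

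Footprints on the subunits were high or low together in a library, and libraries of the same stage lay on opposite sides of the mean. The share of all counts that fell on the 153 identifiers was 0.665, 0.731 and 0.754% in anestrus, 0.893, 0.905 and 0.624% in estrus and 0.770, 0.798 and 0.624% in pregnancy. Estrus 1 and 2 were the highest of the 9 libraries, whereas estrus 3 and pregnancy 3 were the lowest, and the ranges of all 3 stages overlapped. The score of the 83 subunits, the mean over genes of log2 CPM less the average of each gene in all 9 libraries, was -0.19, 0.14 and 0.03 in anestrus, 0.19, 0.33 and -0.32 in estrus and 0.00, 0.21 and -0.39 in pregnancy. By stage the score averaged -0.004 ± 0.169 in anestrus, 0.066 ± 0.340 in estrus and -0.061 ± 0.305 in pregnancy (SD, n = 3 each), so the stage means lay closer to each other than the libraries within estrus or within pregnancy did. Estrus 2 had 77 of 83 subunits above their own 9-library mean and estrus 1 had 67, against 12 in estrus 3 and 9 in pregnancy 3. Over all genes tested, 48.5 to 53.3% of genes were above their mean in each library.

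**Figure D1:**
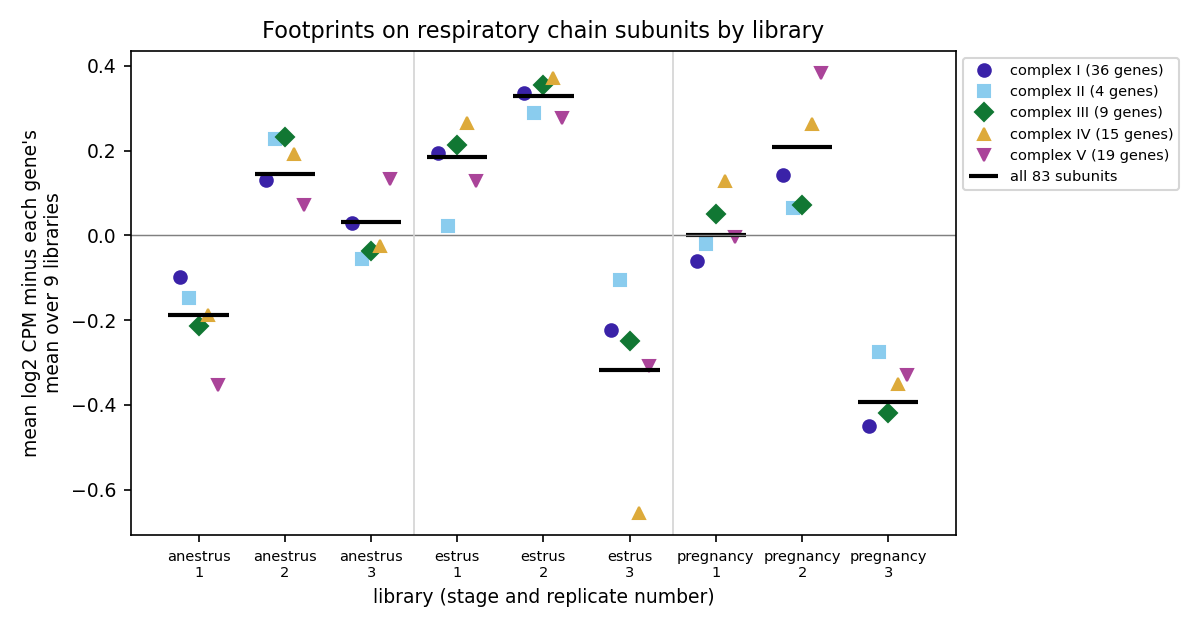
Score of each complex in each library: the mean over its tested genes of log2 CPM, each set against the average of that gene in all 9 libraries (vertical axis, log2), by library (horizontal axis, stage and replicate number). Symbols are complexes I to V and black bars the mean of all 83 subunits; estrus 2 had the highest bar (0.33) and pregnancy 3 the lowest (-0.39), and within a library the complexes mostly lay on the same side of 0.

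In every library other than anestrus 3 and pregnancy 1, all 5 complexes lay on the same side of 0. Complex V scores include ATP5MK and ATP5F1E, whose counts were divided between identifiers. In anestrus 1, where complex V scored -0.35, ATP5F1E had 59 counts on the identifier read and 1759 on another. In anestrus 3 complex V scored 0.13, with 7 of its 19 tested genes above their own mean. In estrus 3 the score was -0.22 for complex I, -0.11 for complex II, -0.25 for complex III, -0.66 for complex IV and -0.31 for complex V. The complex IV mean there includes NDUFA4L2 and COX6B2, both at 0 counts in estrus 3, which lowers it. In that library 2 of the 15 tested complex IV genes were above their own mean. Depth was close in estrus 1 and estrus 3 (6.11 and 6.08 M counts), which lay on opposite sides. Pregnancy 3, the shallowest library (1.47 M counts), had the lowest score of all 83 subunits (-0.39). The part of depth in these scores was not tested. The granulosa marker score was 0.66, -2.29 and -0.42 in anestrus, 1.32, 0.59 and -0.33 in estrus and -0.01, 0.99 and -0.51 in pregnancy. The theca and luteal score was -1.01, -1.26 and 0.05 in anestrus, 0.42, 0.55 and -1.03 in estrus and 0.78, 1.43 and 0.06 in pregnancy. Both marker scores were above 0 in estrus 1 and 2 and in pregnancy 2, where the subunits were also above 0, and both were below 0 in estrus 3, where the subunits were also below 0, and in anestrus 2, where the subunits were above 0. The part of cell makeup in the subunit levels was not tested, and in whole ovaries fewer cells of a type and fewer footprints per cell cannot be told apart.

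No subunit passed the threshold between any stages. In edgeR's quasi-likelihood test on all 9 libraries, with an adjusted p under 0.05 as a call, 0 of 83 subunits were called in each of the 3 comparisons and in the test of the 3 stages together, and 0 of 13936 genes were (background 0% each). The smallest adjusted p of a subunit in edgeR was 0.704 for estrus over anestrus, 0.656 for pregnancy over estrus and 0.718 for pregnancy over anestrus. At an unadjusted p under 0.05, 2 subunits passed for estrus over anestrus (background 7.04% of genes), 2 for pregnancy over estrus (7.43%), 0 for pregnancy over anestrus (6.82%) and 0 over the 3 stages (7.16%). These shares of subunits in the main fit, at most 2.41%, were under the background in each comparison with each symbol read at 1 identifier. The 2 for pregnancy over estrus were ATP5F1A and ATP5MK, and the fold change of ATP5MK was set by libraries at 0. The count moved with the settings. For estrus over anestrus limma-voom with quality weights gave 5 subunits at an unadjusted p under 0.05 (background 11.4%). For pregnancy over estrus it gave 6 (background 12.9%). There edgeR with the identifiers of a symbol summed gave 7 (8.43% of 83, background 7.81%). With a replicate block in edgeR it was 11 of 83 (13.25%, background 9.54%). Both of these edgeR shares were above the background. DESeq2 called 0 subunits against 0.108% of genes for estrus over anestrus, 0.213% for pregnancy over estrus, 0.22% for pregnancy over anestrus and 0.419% over the 3 stages. limma-voom with quality weights called 0 subunits and 0% of genes in all 4. The authors' deposited table lists 0 of 89 subunits at an FDR under 0.05, against 0.143% of all identifiers for estrus over anestrus, 0.106% for pregnancy over estrus and 0.166% for pregnancy over anestrus.

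The fold changes were small and leaned one way in each comparison. In estrus versus anestrus 57 of 83 subunits had a positive log2 fold change and 26 a negative one, with a median of 0.12 beside -0.01 over all genes tested. In pregnancy versus estrus 18 were positive and 65 negative, with a median of -0.23 beside 0.01. In pregnancy versus anestrus 32 were positive and 51 negative, with a median of -0.10 beside 0.00. Under scaling by library size alone it was 0.04, where all genes had 0.13. These medians were smaller than the spread of the subunit score between libraries of 1 stage (pooled SD 0.28, each symbol read at 1 identifier). Each median moved by more than 1.5 times when 1 library was left out. Without estrus 2 the median of estrus versus anestrus was -0.02, without estrus 3 it was 0.28, without anestrus 1 0.03 and without anestrus 2 0.20. In pregnancy versus estrus it was -0.10 without estrus 2, -0.38 without estrus 3 and -0.06 without pregnancy 3. In pregnancy versus anestrus it was 0.0049 without anestrus 2, 0.04 without pregnancy 3, -0.21 without pregnancy 2, -0.15 without pregnancy 1 and -0.15 without anestrus 1. Without estrus 3, 13 subunits (15.7%) passed an unadjusted p under 0.05 in edgeR for estrus over anestrus (background 11.6% of genes). For pregnancy over estrus 16 (19.3%) did (background 11.4%), so both shares were above the background. Of the subunits, 0 passed the adjusted threshold in edgeR. The estrus libraries enter both of these comparisons, whose medians have opposite signs.

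Few subunits had groups that did not overlap. All 3 estrus libraries were above all 3 anestrus libraries for 2 subunits, COX4I2 and ATP5MC1 (background 5.22% of genes), and below for 1, NDUFS5 (6.42%). All 3 pregnancy libraries were above all 3 estrus libraries for 0 subunits (7.05%) and below for 4, NDUFA9, NDUFV1, SDHC and ATP5MC1 (6.59%). All 3 pregnancy libraries were above all 3 anestrus libraries for 3 subunits, COX8A, COX7A2L and COX6B2 (5.88%), and below for 5, NDUFA2, NDUFA9, NDUFB4, NDUFS5 and UQCRFS1 (6.91%). The subunits' shares, 0% to 6.02% of 83, were under the background in each direction. In pregnancy versus anestrus, NDUFA2 had 63.0, 68.3 and 49.5 CPM in pregnancy, against 77.0, 84.5 and 72.3 CPM in anestrus, and NDUFB4 had 9.76, 12.8 and 11.3 CPM in pregnancy, against 14.3, 15.6 and 14.8 CPM in anestrus. Both are accessory subunits of complex I.

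**Figure D2:**
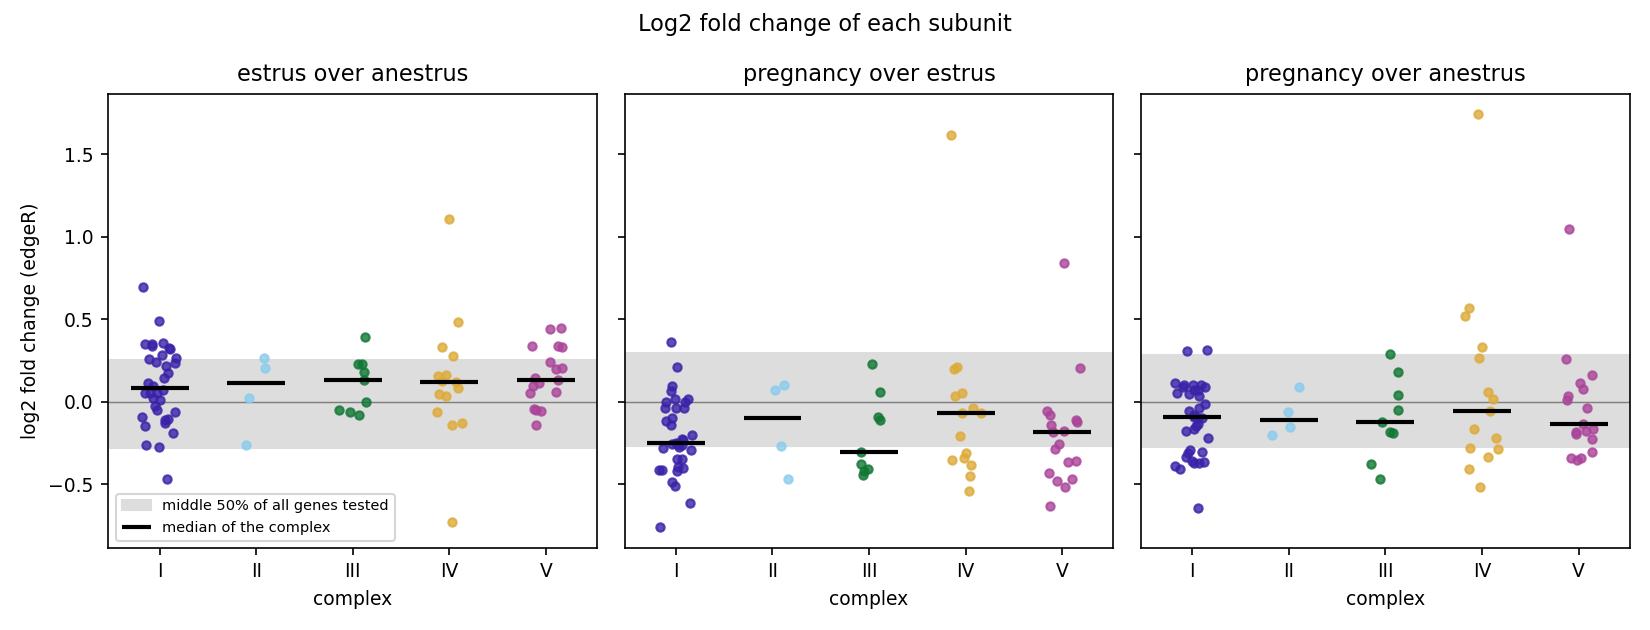
Log2 fold change (edgeR, vertical axis) of each tested subunit by complex (horizontal axis) in the 3 comparisons. Points are genes, black bars the medians of the complexes and the grey band the middle 50% of all 13936 genes tested; ATP5MK, at 0 in all estrus libraries, is not drawn. Most complex I points lay below 0 in pregnancy over estrus (30 of 36), and no point passed the adjusted threshold.

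Complex I is the entry point for electrons from NADH, with a core that carries the flavin and the iron-sulfur clusters and many accessory subunits around it. Its 36 genes had a median level of 99.1 FPKM (fragments per kilobase of length and per M fragments, the authors' per-length unit), beside 12.3 FPKM for all genes tested. The highest per length were accessory subunits, NDUFA13 at 362 ± 35.8 FPKM, NDUFA1 at 306 ± 82.3 FPKM and NDUFB3 at 269 ± 52.9 FPKM (mean ± SD of 9 libraries, here and below). The lowest were NDUFV1, the flavin-bearing core subunit, at 38.5 ± 5.88 FPKM, NDUFB4 at 31.5 ± 4.11 FPKM and NDUFV3 at 17.2 ± 2.65 FPKM. The 7 core genes spanned NDUFV1 to NDUFV2 (115 ± 24.6 FPKM), and within each library NDUFV2 had 2.32 to 3.64 times the FPKM of NDUFV1, its partner in the same module. NDUFS1, the largest iron-sulfur subunit, varied little between libraries (52.5 ± 5.41 FPKM).

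In estrus versus anestrus, 24 of the 36 complex I genes had a positive log2 fold change and 12 a negative one (median 0.09). NDUFS5, an accessory subunit, had 27.9, 33.9 and 29.2 CPM in estrus, against 39.1, 49.2 and 37.2 CPM in anestrus. Every estrus library was below every anestrus library, with a log2 fold change of -0.46 ± 0.19 (SE) and an unadjusted p of 0.0372, which the adjustment over all genes took to 0.704. NDUFS4, an accessory subunit needed for a complete complex I in mice and humans, had 142, 121 and 49.9 CPM in estrus, against 69.4, 51.1 and 72.7 CPM in anestrus. Its estrus libraries fell on both sides of the anestrus range, and its log2 fold change of 0.70 ± 0.38 had an adjusted p of 0.726 in edgeR.

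In pregnancy versus estrus, 30 of the 36 genes were negative (median -0.25). NDUFV1 had 55.0, 62.6 and 54.9 CPM in pregnancy, against 84.2, 81.1 and 64.4 CPM in estrus. Its groups did not overlap, and the log2 fold change of -0.41 ± 0.19 had an unadjusted p of 0.0517. NDUFB5, an accessory subunit of the membrane arm, had 57.3, 67.5 and 39.4 CPM in pregnancy, against 85.2, 90.3 and 60.4 CPM in estrus, and estrus 3 fell inside the pregnancy range. Read at 1 identifier, NDUFA5 had the lowest log2 fold change of all subunits here (-0.76 ± 0.40, adjusted p = 0.694 in edgeR) and also for pregnancy over anestrus (-0.65 ± 0.40). It had 16.6, 25.6 and 5.96 CPM in pregnancy, against 30.2, 32.7 and 21.8 CPM in estrus and 20.9, 33.9 and 23.5 CPM in anestrus. Pregnancy 3 was the lowest of all 9 libraries, where the identifier read here held 10 counts and a second one 26. With its identifiers summed, the log2 fold change of NDUFA5 was -0.63 ± 0.26 over estrus and -0.33 ± 0.26 over anestrus, and it was the lowest in neither.

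In pregnancy versus anestrus, 13 genes were positive and 23 negative (median -0.09). NDUFA9, an accessory subunit near the quinone site, had 47.0, 54.4 and 46.5 CPM in pregnancy, against 55.3, 68.0 and 63.8 CPM in anestrus and 60.0, 69.1 and 59.4 CPM in estrus. Pregnancy was the lowest stage with no overlap on either side. The log2 fold change of NDUFA9 was -0.34 ± 0.17 over anestrus and -0.35 ± 0.18 over estrus, with adjusted p of 0.718 and 0.688 in edgeR; the comparisons share the pregnancy libraries. NDUFS5 was at 36.4, 31.7 and 28.6 CPM in pregnancy, also below every anestrus library (-0.37 ± 0.20, unadjusted p = 0.0897 in edgeR).

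Complex II, succinate dehydrogenase, belongs both to the respiratory chain and to the citric acid cycle. Per length its genes kept the order SDHB (144 ± 18.8 FPKM, the iron-sulfur subunit), SDHD (126 ± 11.8 FPKM) and SDHC (96.7 ± 17.4 FPKM), the membrane anchors, and SDHA (82.1 ± 11.3 FPKM, the flavoprotein) in the mean of 9 libraries and in each mean that left out 1 library. SDHC and SDHA differed by less than the spread of SDHC between libraries. SDHC had 49.0, 47.7 and 36.4 CPM in pregnancy, against 60.6, 72.7 and 52.3 CPM in estrus and 39.6, 63.9 and 50.6 CPM in anestrus. Every pregnancy library was below every estrus library (-0.47 ± 0.23, unadjusted p = 0.0685 and adjusted p = 0.682 in edgeR). Over anestrus the log2 fold change of SDHC was -0.20 ± 0.23, and in estrus over anestrus it was 0.27 ± 0.23. SDHD, the other anchor, had 55.7, 68.8 and 52.1 CPM in estrus, against 70.3, 78.4 and 62.7 CPM in anestrus (-0.26 ± 0.18, adjusted p = 0.76 in edgeR). In pregnancy it had 61.9, 67.2 and 60.8 CPM and a log2 fold change over anestrus of -0.15 ± 0.18. SDHB had 122, 108 and 100.2 CPM in pregnancy, against 127, 163 and 108 CPM in estrus (-0.27 ± 0.20), with overlapping groups.

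Complex III carries electrons from ubiquinol to cytochrome c, with cytochrome c1 (CYC1) and the Rieske protein (UQCRFS1) as its nuclear-encoded catalytic subunits. The small supernumerary subunits had the highest levels per length, UQCR10 at 841 ± 211 FPKM, UQCRB at 396 ± 60.1 FPKM and UQCR11 at 243 ± 35.1 FPKM. CYC1 was at 91.9 ± 13.9 FPKM, and the lowest were UQCRC1 at 54.7 ± 10.1 FPKM, UQCRFS1 at 47.6 ± 9.59 FPKM and UQCRC2, the other core protein, at 40.8 ± 16.1 FPKM for the identifier read here. With identifiers summed UQCRC2 was at 69.0 ± 13.0 FPKM, above UQCRC1 and UQCRFS1. In estrus versus anestrus 5 of 9 genes were positive (median 0.13), for pregnancy over estrus 2 of 9 (median -0.31) and for pregnancy over anestrus 3 of 9 (median -0.12).

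UQCRQ, a small subunit, had 118, 136 and 79.8 CPM in estrus, against 79.5, 86.8 and 88.0 CPM in anestrus (0.39 ± 0.24, adjusted p = 0.74 in edgeR). Estrus 1 and 2 were above the anestrus libraries and estrus 3 lay among them. In pregnancy it had 92.6, 92.0 and 59.6 CPM (-0.44 ± 0.24 over estrus, adjusted p = 0.696 in edgeR). UQCRB had 168, 182 and 135 CPM in estrus, against 139, 144 and 145 CPM in anestrus (0.18 ± 0.21), with overlapping groups. UQCRC1, a core protein, had 70.2, 80.2 and 46.5 CPM in pregnancy, against 75.8, 104 and 82.8 CPM in estrus (-0.41 ± 0.26) and 69.4, 111 and 93.4 CPM in anestrus (-0.46 ± 0.26). Pregnancy 3 was its lowest library, and both pairs of groups overlapped. UQCRFS1 had 36.5, 37.2 and 28.6 CPM in pregnancy, against 37.4, 57.7 and 38.8 CPM in anestrus, with no overlap but little space between pregnancy 2 and anestrus 1 (-0.38 ± 0.27, adjusted p = 0.749 in edgeR).

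Complex IV, cytochrome c oxidase, passes electrons to oxygen. Read at 1 identifier, its highest genes per length were COX7C at 919 ± 178 FPKM, COX6A1 at 591 ± 145 FPKM and COX8A at 535 ± 184 FPKM, followed by COX4I1 at 442 ± 90.1 FPKM. COX7B was at 204 ± 36.4 FPKM on 1 identifier and 612 ± 109 FPKM with its identifiers summed, which put it between COX7C and COX6A1. COX6A2 and COX8C were listed at 0, and COX6C, a structural subunit known from all tissues, was at 0.667 ± 1.17 FPKM with 0 to 7 counts per library on the identifier read here. With its identifiers summed COX6C was at 0.869 ± 1.27 FPKM, and whether annotation or read assignment under this symbol sets the low value was not tested. In estrus versus anestrus 11 of 15 tested genes were positive (median 0.12), for pregnancy over estrus 5 of 15 (median -0.07) and for pregnancy over anestrus 7 of 15 (median -0.05). COX8A, the ubiquitous form of subunit 8, had 122, 121 and 182 CPM in pregnancy, against 90.2, 86.4 and 119 CPM in anestrus. The groups did not overlap, and the log2 fold change of 0.52 ± 0.29 had an adjusted p of 0.718 in edgeR. In estrus it had 164, 164 and 85.3 CPM, with estrus 3 below every anestrus library (0.48 ± 0.29 over anestrus). Pregnancy 3, the lowest library for most subunits, was the highest for COX8A. COX7A2L, a factor that joins complexes III and IV, had 69.6, 60.9 and 73.9 CPM in pregnancy, against 55.1, 50.2 and 56.5 CPM in anestrus (0.33 ± 0.28, adjusted p = 0.777 in edgeR). COX4I1 had 218, 248 and 137 CPM in pregnancy, against 272, 345 and 206 CPM in estrus (-0.45 ± 0.27, adjusted p = 0.721 in edgeR), and the groups overlapped.

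**Figure D3:**
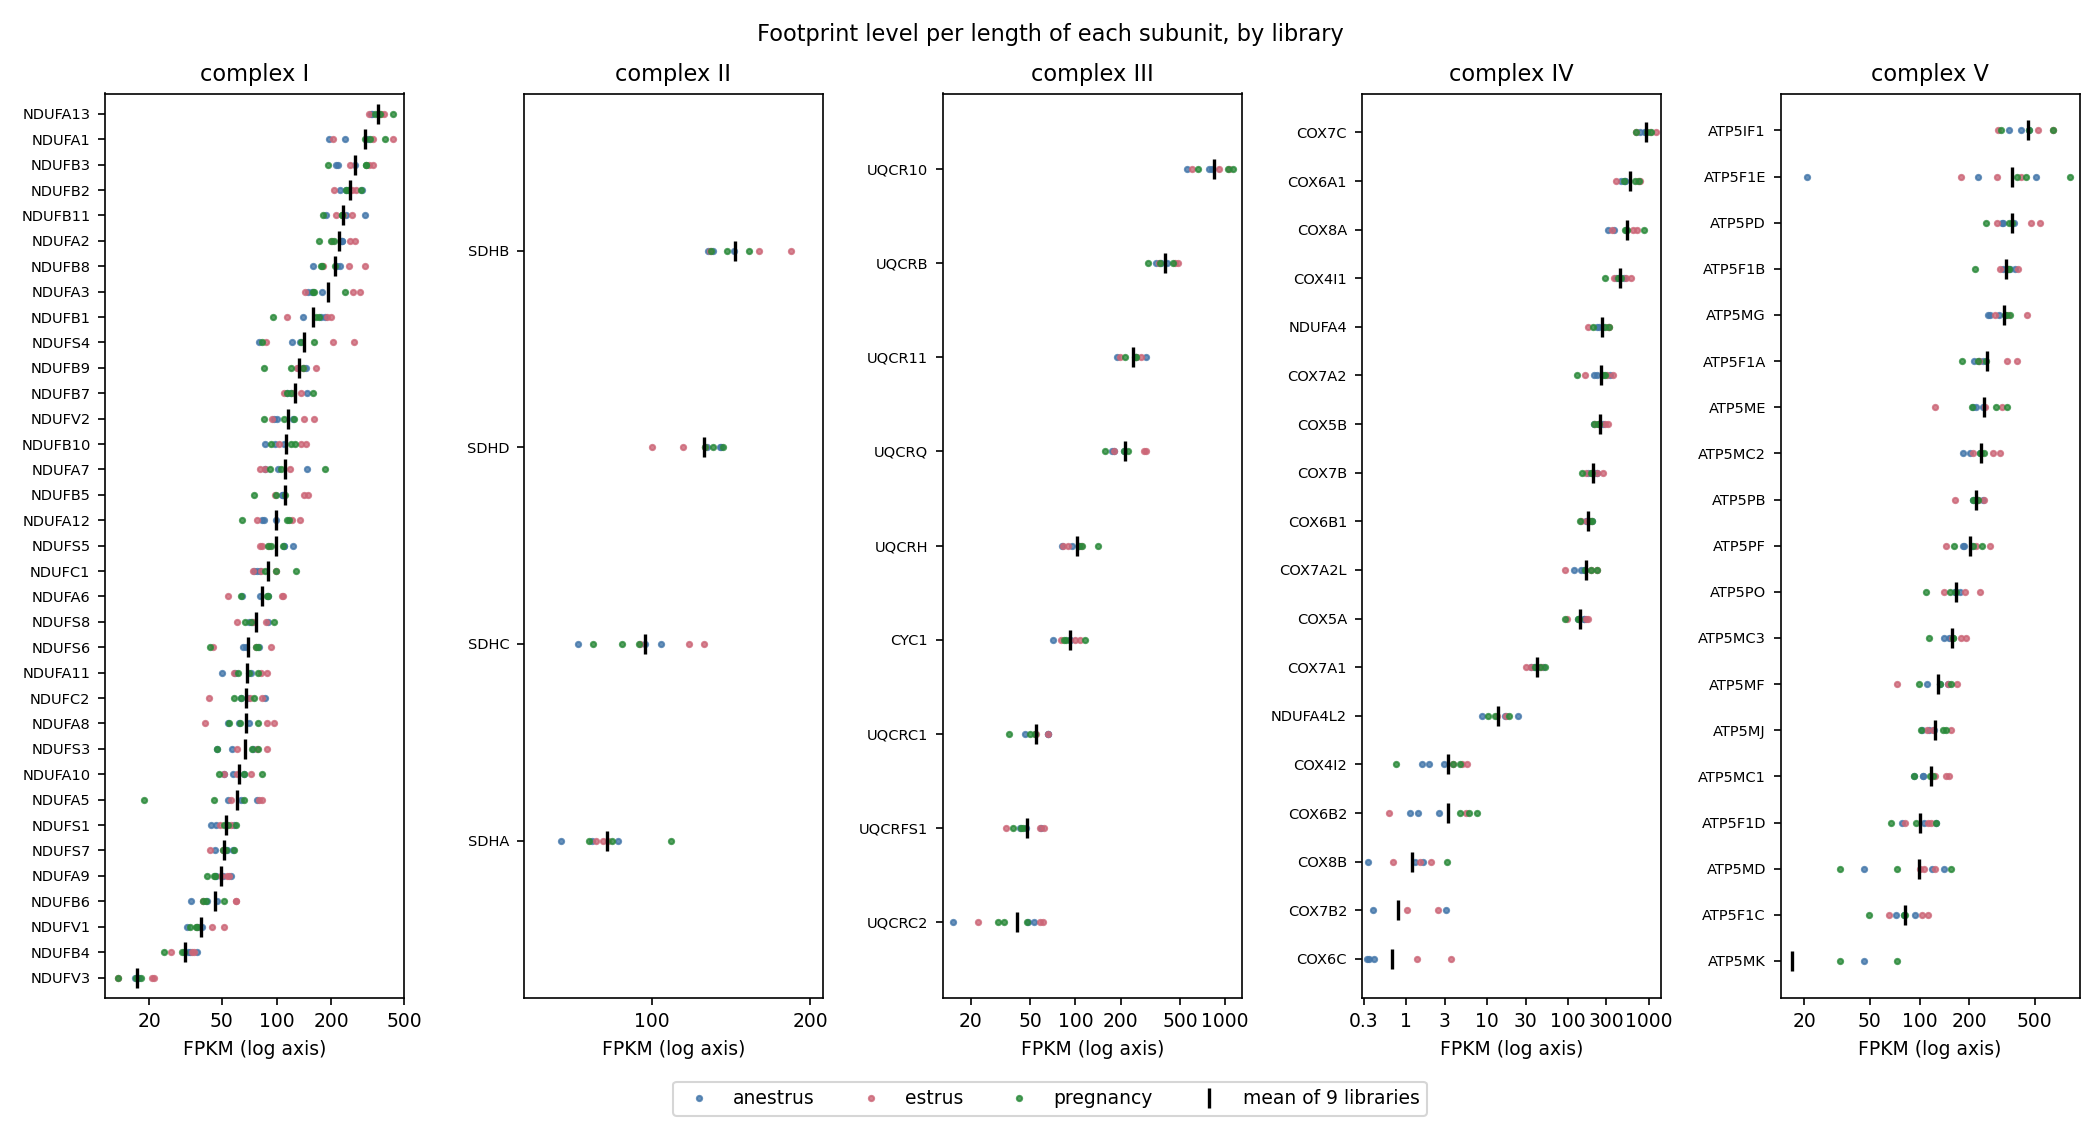
Footprint level per length (horizontal axis, FPKM on a log scale, a scale of its own in each panel) of each subunit, ordered within complexes I to V by the mean of 9 libraries. Points are libraries in the colour of their stage, black marks are the means, and values of 0 and 1 complex I gene are not drawn; stages intermix for most genes, and the level spans 919 FPKM for COX7C down to under 1 FPKM for COX7B2 and COX6C.

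Complex V, the ATP synthase, joins the catalytic F1 part to the membrane part by a central and a peripheral stalk. F1 holds several copies of alpha (ATP5F1A) and beta (ATP5F1B) for each gamma (ATP5F1C), delta (ATP5F1D) and epsilon (ATP5F1E). Read at 1 identifier, the highest gene per length was ATP5IF1, the inhibitor that blocks ATP hydrolysis, at 457 ± 129.8 FPKM, followed by ATP5F1E at 365 ± 227 FPKM and ATP5PD, of the peripheral stalk, at 365 ± 89.4 FPKM. With identifiers summed ATP5F1E reached 649 ± 186 FPKM and ranked above ATP5IF1. ATP5F1B was at 335 ± 51.3 FPKM and ATP5F1A at 256 ± 65.8 FPKM, while ATP5F1D was at 101 ± 21.6 FPKM and ATP5F1C at 82.0 ± 19.3 FPKM. Within each library ATP5F1B had 3.35 to 4.74 times the FPKM of ATP5F1C (mean 4.16 ± 0.456, SD, n = 9), and ATP5F1A had 2.42 to 3.78 times (3.15 ± 0.442). The FPKM ratio of ATP5IF1 to ATP5F1B was 0.926 to 1.89. ATP5MC1, ATP5MC2 and ATP5MC3, which encode the same mature c-ring protein, together reached 431 to 651 FPKM. The lowest symbols were ATP5F1C, ATP5MK at 16.9 ± 27.3 FPKM and ATP5MPL, listed at 0. Under the other names of the last 2 genes, ATP5MD was at 99.9 ± 41.6 FPKM and ATP5MJ at 124 ± 18.9 FPKM.

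With each symbol read at 1 identifier, ATP5F1A had the smallest unadjusted p of all subunits for pregnancy over estrus, and with identifiers summed UQCRC2 had a smaller one (0.0226). ATP5F1A had 367, 430.3 and 268 CPM in pregnancy, against 546, 708 and 399.6 CPM in estrus and 372, 441 and 398 CPM in anestrus. Estrus 1 and 2 stood above all other libraries, and estrus 3 lay inside the pregnancy range. The log2 fold change over estrus was -0.63 ± 0.26 (unadjusted p = 0.0345 and adjusted p = 0.656 in edgeR). ATP5MC1 had 60.9, 70.8 and 56.1 CPM in estrus, against 47.1, 46.5 and 44.8 CPM in anestrus, with no overlap (0.44 ± 0.19, unadjusted p = 0.0452 and adjusted p = 0.704 in edgeR). In pregnancy it had 48.9, 53.8 and 35.8 CPM, again without overlap with estrus (-0.43 ± 0.20, unadjusted p = 0.0531 in edgeR). It was the one subunit whose estrus libraries stood above all 6 others, and both comparisons share the estrus libraries. In pregnancy versus anestrus ATP5PO, of the peripheral stalk, had 96.0, 108 and 62.6 CPM in pregnancy, against 108, 124 and 110.5 CPM in anestrus (-0.35 ± 0.26, adjusted p = 0.759 in edgeR). Over all of complex V, 14 of 19 tested genes were positive for estrus over anestrus (median 0.14), 3 of 19 for pregnancy over estrus (median -0.18) and 8 of 19 for pregnancy over anestrus (median -0.14).

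Among tissue isoforms, the forms known from muscle, testis or lung made up a minor share next to the ubiquitous forms, and COX7A1 was the largest of them. COX7A1, the heart and muscle form of subunit 7a, was at 41.0 ± 7.42 FPKM beside 254 ± 77.9 FPKM for COX7A2. The lengths behind these FPKM were 494 bases for COX7A1 and 281 bases for COX7A2. The mean share of COX7A1 in its pair was 14.8% by FPKM and 23.2% by counts. NDUFA4L2, known as a target of hypoxia-inducible factor, was at 13.5 ± 6.89 FPKM beside 265 ± 53.0 FPKM for NDUFA4. COX4I2, known from lung and from oxygen-sensing cells, was at 3.32 ± 1.64 FPKM. The length behind this value was 1013 bases, against 539 bases for COX4I1. COX6B2, known from testis, was at 3.25 ± 2.71 FPKM. COX8B and COX7B2 held 31 and 20 counts over all 9 libraries, and COX6A2, the muscle form of subunit 6a, held 0 beside 19446 for COX6A1. Of 10 striated muscle markers, 6 (CKM, MB, MYBPC1, MYH7, MYL2 and TNNC1) were at 0 in at least 1 library, and the list summed to 15.2 to 147 CPM. The 7 smooth muscle markers, none at 0, summed to 10426 to 24155 CPM. The part of either cell type in the COX7A1 level was not tested.

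The share of COX7A1 in the counts of COX7A1 and COX7A2 was 22.6, 16.6 and 27.3% in anestrus, 14.8, 18.5 and 27.4% in estrus and 24.8, 21.8 and 34.6% in pregnancy. The stages overlapped, and pregnancy 3 was highest, with a 95% Wilson interval of 25.1 to 45.4%. The mean share was 27.1 ± 6.66% in pregnancy and 20.3 ± 6.48% in estrus (SD, n = 3 each), with an exact two-sided permutation p of 0.3. With 3 libraries against 3 such a test cannot go below 0.1. The share of COX4I2 in the counts of COX4I2 and COX4I1 was 1.64, 1.65 and 2.00% in estrus, against 0.761, 0.827 and 1.12% in anestrus, and every estrus library was above every anestrus library. The means were 1.77 ± 0.205% in estrus and 0.903 ± 0.192% in anestrus (SD, n = 3 each), with the smallest exact p the design allows, 0.1. In pregnancy the COX4I2 share was 1.77, 1.85 and 0.433%, where pregnancy 3 rested on 1 COX4I2 count (interval 0.0765 to 2.41%). In CPM, COX4I2 had 4.54, 5.81 and 4.22 in estrus, against 1.65, 2.21 and 2.90 in anestrus, the highest log2 fold change of the subunits in that comparison (1.11 ± 0.52, unadjusted p = 0.0586 and adjusted p = 0.71 in edgeR). The authors' deposited table gives COX4I2 an FDR of 0.642 there.

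The NDUFA4L2 share of its pair was 7.20, 8.45 and 3.54% in anestrus, 4.32, 5.32 and 0% in estrus and 3.54, 3.87 and 8.70% in pregnancy. Estrus 3 had 0 NDUFA4L2 counts, which allows a share of up to 0.990% (3 counts of the pair's total). The COX6B2 share was 2.59, 2.37 and 1.55% in pregnancy, against 0.406, 0.495 and 0.962% in anestrus, with no overlap (exact p = 0.1, the smallest possible) and 2 to 16 counts behind each share of COX6B2. With the identifiers of COX6B1 summed the shares were 1.10 to 1.46% in pregnancy, against 0.272 to 0.566% in anestrus, still with no overlap. In CPM, COX6B2 had 1.70, 2.23 and 1.19 in pregnancy, against 0.331, 0.514 and 0.726 in anestrus and 1.57, 0.194 and 0 in estrus. It had the highest log2 fold change of the subunits for pregnancy over anestrus (1.74 ± 0.95, adjusted p = 0.718 in edgeR) and 1.62 ± 1.01 for pregnancy over estrus (adjusted p = 0.734 in edgeR). Among the c-ring genes, ATP5MC1 held 44.0, 43.0 and 43.5% of the counts of ATP5MC1 and ATP5MC3 in estrus, against 41.7, 37.2 and 39.6% in anestrus (exact p = 0.1, the smallest possible). ATP5MC2 held 56.9, 57.8 and 60.2% of the counts of ATP5MC2 and ATP5MC3 in anestrus, 61.3, 61.9 and 57.6% in estrus and 59.8, 60.0 and 68.7% in pregnancy. Of 24 comparisons of shares (8 pairs with counts, 3 comparisons), none had an adjusted p below 0.8. Intervals cover counting error only. Shares of counts are not corrected for the lengths of the 2 genes, and the lengths behind FPKM need not be coding lengths.

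**Figure D4:**
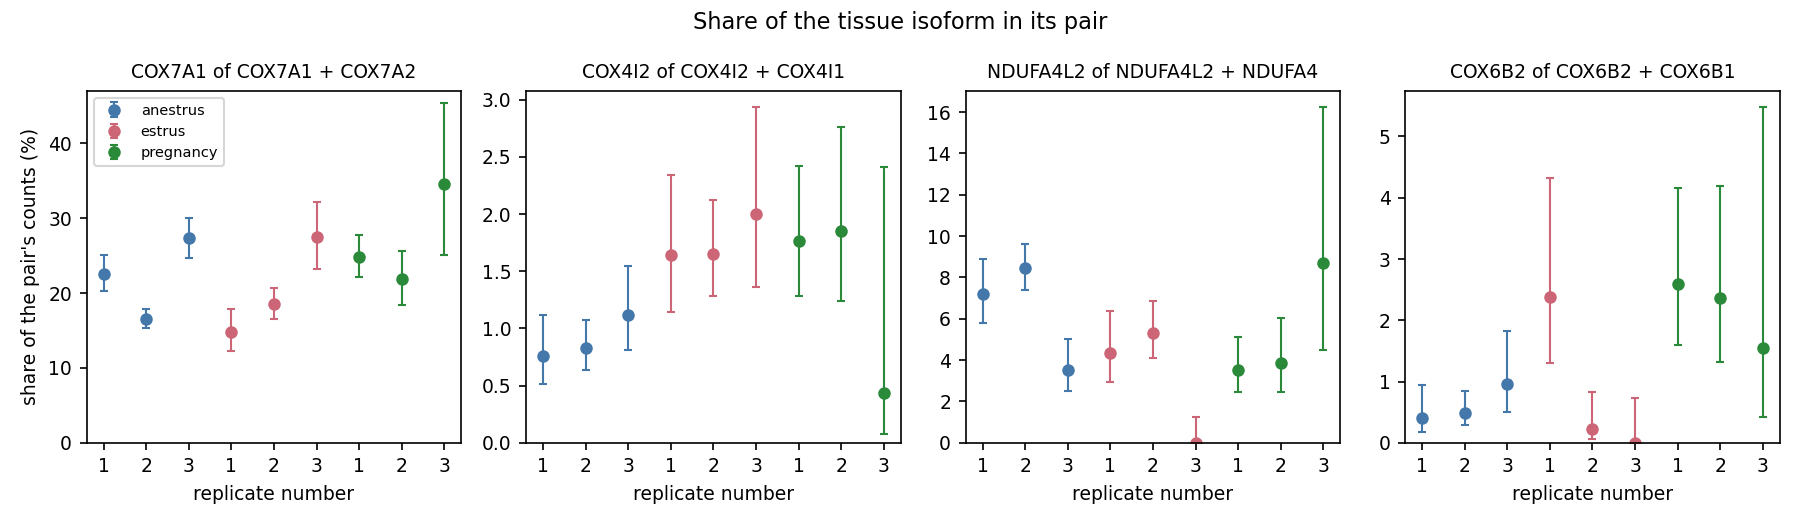
Share of COX7A1, COX4I2, NDUFA4L2 and COX6B2 in the counts of its pair (vertical axis, percent) in each library (horizontal axis, replicate number within anestrus, estrus and pregnancy). Points are libraries and bars 95% Wilson intervals of the counts; the estrus points of COX4I2 (1.64, 1.65 and 2.00%) all lie above the anestrus points (0.761, 0.827 and 1.12%), and the COX7A1 points overlap between stages.

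Several subunits were counted on more than 1 identifier, and how the counts were divided between them differed from library to library. ATP5F1E, the F1 epsilon subunit, had counts on a pair of identifiers. The one read here held 59, 1206 and 1136 in anestrus, 464, 604 and 200 in estrus, and 742, 750 and 106 in pregnancy, and the other 1759, 1206 and 0 in anestrus, 464, 604 and 200 in estrus, and 742, 0 and 106 in pregnancy. The 2 were equal in 6 libraries, whereas in anestrus 3 and pregnancy 2 all counts stood on one and in anestrus 1 nearly all on the other. Read at 1 identifier, ATP5F1E had 78.7, 152 and 63.2 CPM in pregnancy, against 3.91, 47.7 and 91.6 CPM in anestrus, a log2 fold change of 1.05 ± 0.78 (adjusted p = 0.76 in edgeR). Summed over its identifiers it had 157, 152 and 128 CPM in pregnancy, against 120.5, 94.6 and 91.1 CPM in anestrus, and the log2 fold change was 0.51 ± 0.27 (adjusted p = 0.71 in edgeR). Its coefficient of variation over the 9 libraries was 25.4% summed, against 61.6% at 1 identifier.

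UQCRC2 showed the same kind of split. Its identifier with most counts held 328, 2115 and 798 in anestrus, 490, 934 and 188 in estrus, and 598, 231 and 62 in pregnancy, and its second one 925, 819 and 386 in anestrus, 201, 489 and 380 in estrus, and 197, 183 and 40 in pregnancy. The first held 26.2 to 75.2% of the gene's counts, lowest in anestrus 1, and the coefficient of variation was 23.2% summed, against 42.3% at 1 identifier. Summed, UQCRC2 had 84.2, 84.4 and 61.3 CPM in pregnancy, against 109, 139 and 98.8 CPM in estrus, with no overlap and a log2 fold change of -0.58 ± 0.22 (unadjusted p = 0.0226 and adjusted p = 0.62 in edgeR). At 1 identifier the log2 fold change was -0.42 ± 0.49 (adjusted p = 0.861 in edgeR).

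COX7B had 3 identifiers with identical counts in all 9 libraries (793, 1927 and 742 in anestrus, 397, 859 and 295 in estrus, and 511, 277 and 64 in pregnancy). ATP5MK, a small membrane subunit, held 0, 0 and 114 in anestrus, 0, 0 and 0 in estrus, and 0, 74 and 10 in pregnancy, and ATP5MD, the older name of the same gene, held 377, 836 and 114 in anestrus, 127, 285 and 134 in estrus, and 291, 74 and 10 in pregnancy. In the 3 libraries where ATP5MK had counts, ATP5MD had the same number. The log2 fold changes of ATP5MK were the lowest of all subunits for estrus over anestrus and the highest for pregnancy over estrus, both set by libraries at 0. No size is given for them, since ATP5MD carried counts in every library, and a median over subunits takes only their sides from them. ATP5MD and ATP5MK together had 25.0, 33.0 and 18.4 CPM in anestrus, 19.9, 27.6 and 22.6 CPM in estrus and 30.9, 30.1 and 11.9 CPM in pregnancy, with all 3 stages overlapping. COX6B1, ATP5MG, ATP5MC2 and NDUFA5 also had a second identifier with more than 10 counts on average, which held a varying share. Over the 83 tested subunits, however, the median coefficient of variation between libraries was 22.6% summed and 22.8% at 1 identifier, and 0 subunits passed the adjusted threshold either way.

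**Figure D5:**
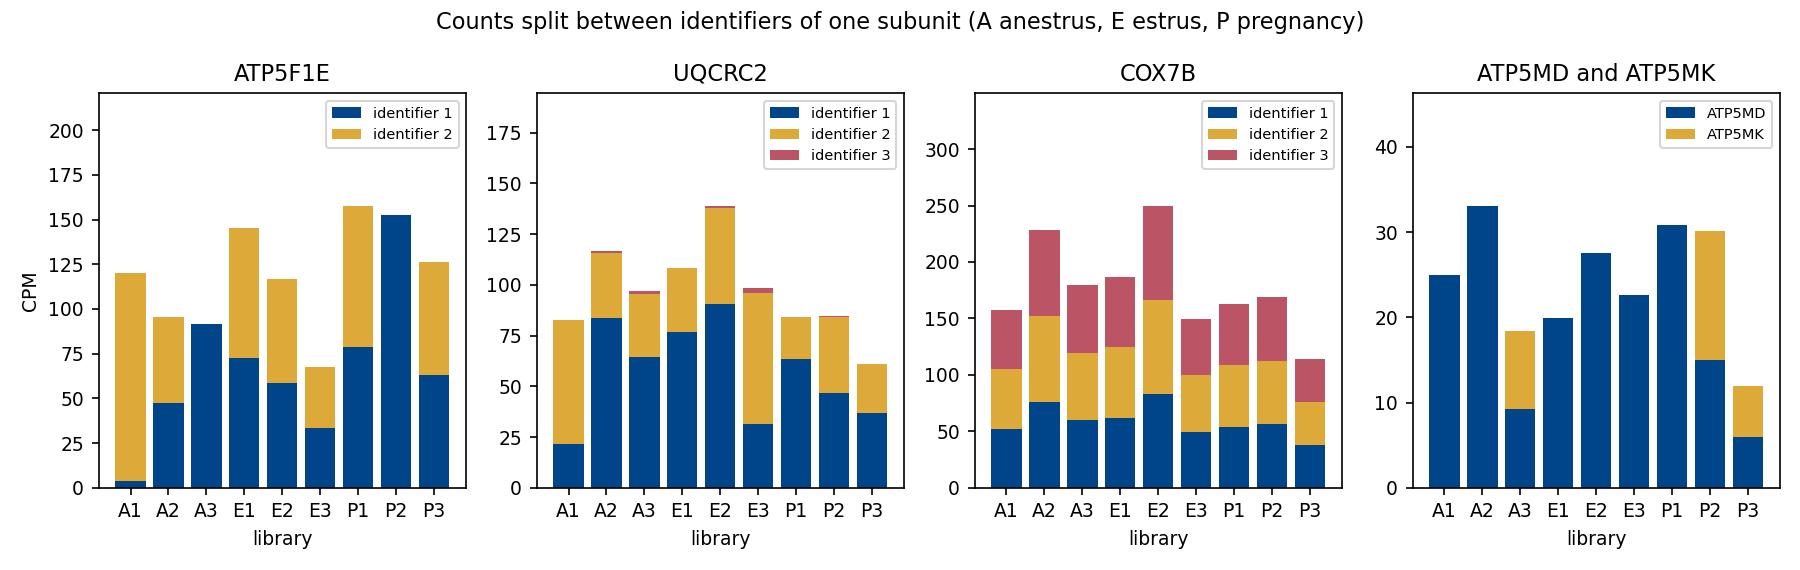
CPM (vertical axis) on each identifier of ATP5F1E, UQCRC2 and COX7B, and on ATP5MD and ATP5MK, stacked by library (horizontal axis; A anestrus, E estrus, P pregnancy, with the replicate number). Colours are identifiers of one gene; the ATP5F1E bars change colour between libraries by more than they change height, and the 3 COX7B identifiers are equal in every library.

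Genes that serve the respiratory chain were set beside the subunits as lists, and 0 members of any list passed the adjusted threshold in edgeR. The 45 assembly factors, which build the complexes without staying in them, had 29 of 45 positive (median 0.09) for estrus over anestrus, 21 of 45 positive (median -0.09) for pregnancy over estrus and 24 of 45 positive (median 0.02) for pregnancy over anestrus. FOXRED1, a complex I assembly factor, had 19.9, 20.5 and 16.1 CPM in pregnancy, against 10.5, 8.42 and 11.2 CPM in anestrus, with no overlap (0.92 ± 0.23, unadjusted p = 0.00245 and adjusted p = 0.718 in edgeR). NDUFAF7, also a complex I assembly factor, had 9.34, 12.8 and 8.94 CPM in pregnancy, against 19.6, 16.0 and 15.8 CPM in estrus (-0.71 ± 0.25, adjusted p = 0.656 in edgeR). NDUFAF3, another complex I factor, had 53.2, 62.8 and 38.6 CPM in estrus, against 34.1, 34.4 and 42.6 CPM in anestrus (0.48 ± 0.27). The 13 citric acid cycle genes had 10 of 13 positive (median 0.14) for estrus over anestrus, 0 of 13 positive (median -0.20) for pregnancy over estrus and 3 of 13 positive (median -0.17) for pregnancy over anestrus. DLST, of the oxoglutarate dehydrogenase complex, had 37.0, 37.0 and 31.0 CPM in pregnancy, against 56.0, 60.0 and 51.1 CPM in estrus and 41.8, 55.4 and 46.8 CPM in anestrus. Pregnancy was below both without overlap (-0.66 ± 0.19 over estrus, adjusted p = 0.656, and -0.45 ± 0.18 over anestrus, adjusted p = 0.718, in edgeR). SUCLG2, a succinyl-CoA ligase subunit, had 119.6, 160.4 and 94.8 CPM in estrus, against 77.6, 93.5 and 86.1 CPM in anestrus, just without overlap (0.54 ± 0.23, adjusted p = 0.704 in edgeR).

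The 9 genes of cytochrome c, the adenine nucleotide and phosphate carriers, the porins and the acyl carrier NDUFAB1 had 3 of 9 positive (median -0.04) for estrus over anestrus, 0 of 9 positive (median -0.18) for pregnancy over estrus and 2 of 9 positive (median -0.29) for pregnancy over anestrus. SLC25A6, an adenine nucleotide carrier, had 108, 103 and 124 CPM in pregnancy, against 161, 268 and 131 CPM in anestrus (-0.74 ± 0.26, adjusted p = 0.718 in edgeR), and anestrus 2 stood highest. In estrus it had 139.5, 131 and 109 CPM (-0.56 ± 0.26 over anestrus). NDUFAB1 had 60.1, 77.2 and 50.7 CPM in pregnancy, against 78.4, 111 and 53.5 CPM in estrus (-0.37 ± 0.27). The 13 regulators of mitochondrial biogenesis had 3 of 13 positive (median -0.12) for estrus over anestrus, 9 of 13 positive (median 0.02) for pregnancy over estrus and 5 of 13 positive (median -0.06) for pregnancy over anestrus. PPRC1, a coactivator related to PGC-1 alpha, had 17.4, 16.8 and 27.3 CPM in estrus, against 29.9, 44.1 and 30.4 CPM in anestrus, with no overlap (-0.77 ± 0.26, unadjusted p = 0.0132 and adjusted p = 0.704 in edgeR). POLG, the mitochondrial DNA polymerase, had 11.4, 12.8 and 12.5 CPM in pregnancy, against 3.60, 7.36 and 9.11 CPM in estrus and 8.21, 7.43 and 8.38 CPM in anestrus (0.86 ± 0.34 over estrus, adjusted p = 0.656, and 0.61 ± 0.33 over anestrus, adjusted p = 0.718, in edgeR). Every pregnancy library of POLG was above the 6 others.

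The partner subunits encoded in mitochondrial DNA had the reverse order at both ends of the libraries. Their 13 genes summed to 966, 383 and 509.9 CPM in anestrus, 631, 212 and 950.2 CPM in estrus and 715, 610.5 and 1982 CPM in pregnancy. Estrus 2, the highest library for the nuclear-encoded subunits, was the lowest, and pregnancy 3, their lowest library, was the highest. COX1 was the largest part of this sum in each library. It had 698, 224 and 295 CPM in anestrus, 377, 139 and 591 CPM in estrus and 465, 377 and 1231 CPM in pregnancy. Of the 10 mitochondrial genes tested, 3 were positive for estrus over anestrus (median -0.22), 10 for pregnancy over estrus (median 1.08) and 9 for pregnancy over anestrus (median 0.81). All 3 pregnancy libraries were above all 3 estrus libraries for 1 of these 10 genes. Apart from estrus 2 and pregnancy 3, the summed levels of estrus (631 and 950.2 CPM) and pregnancy (715 and 610.5 CPM) overlapped. How much of these medians came from estrus 2 and pregnancy 3 was not tested. COX3, a core subunit of complex IV, had 13.6, 18.5 and 43.5 CPM in pregnancy, against 8.92, 3.87 and 15.8 CPM in estrus (1.36 ± 0.57, adjusted p = 0.656 in edgeR), with overlapping groups. COX2 had 30.9, 24.8 and 111 CPM in pregnancy, against 32.3, 18.1 and 13.5 CPM in anestrus (1.34 ± 0.69, adjusted p = 0.718 in edgeR), and pregnancy 3 alone exceeded every other library. ND6, a complex I subunit, had 0.626, 0.0968 and 1.69 CPM in estrus, against 4.83, 2.02 and 1.05 CPM in anestrus (-1.79 ± 0.85, adjusted p = 0.71 in edgeR), with 1 to 10 counts in the estrus libraries. Mitochondrial ribosomes, not those of the cytosol, make these proteins.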

How the data were processed

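Ribosome footprint libraries of 9 yak ovary samples (3 each in anestrus, estrus and pregnancy) were analysed from the tables the authors deposited. Per the submitters' processing notes the reads were processed with Bowtie2 and RSEM; no source used here gives the versions, the strand setting or the genome build. The deposited tables hold RSEM estimated counts per gene identifier and the authors' FPKM per library, and log2 ratios, p-values and FDR of the authors' own pairwise comparisons. Replicates were not pooled. Estimated counts were rounded to whole numbers.

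The main test was edgeR 4.0.16 (R 4.3.3): TMM factors, filterByExpr (13936 genes kept, 99.9% of counts), one quasi-likelihood fit over all 9 libraries with stage as the only term, and Benjamini-Hochberg adjustment over all genes tested, with an adjusted p under 0.05 as a call. The SE of an edgeR log2 fold change is its absolute value divided by the square root of the F statistic of its test. CPM values use the TMM-scaled library sizes. Scores are means over genes of log2 CPM (prior count 2) minus each gene's mean over 9 libraries. Shares of paralog pairs were compared by exact two-sided permutation tests over libraries. Levels between genes used the authors' FPKM, because coding lengths, which the design named, were not used here; lengths behind FPKM can differ between identifiers. Libraries held 1.47 M to 28.9 M counts, so a floor of 3 counts was 0.104 to 2.04 CPM. The biological coefficient of variation was 34.46%. All libraries differed by more than counting noise, so all were counted. Identifiers without a symbol held 0.403% of counts and stayed in the fit as genes.

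Genes named in the text were the paralog pairs, the 3 highest and 3 lowest levels of each complex, the 2 smallest unadjusted p per complex and comparison, the highest and lowest fold change per comparison, and the smallest p of each pathway list; genes without overlap between groups, and those with split identifiers, were named after their values were seen. Members and lists were chosen with earlier results of these data known. Gene symbols are those of the deposited tables; 84 of 89 matched RefSeq names (assembly Bosgru_T2T1.0, used for names only). The edgeR fit was tested on simulated counts with known changes, and the permutation test on small example values. The other statistics had no such test. Alternatives were DESeq2 1.42.0, limma 3.58.1 (voom with quality weights), other scaling factors and filters, the 6 libraries of a comparison alone, a replicate block, summed identifiers, the authors' table, and each library left out. 1 complex I gene enters the counts, medians and scores but is not reported here by itself.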

Additional observations from a re-analysis of the deposited data

How the results depend on the processing

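No subunit was called under any of the 19 alternatives that gave adjusted p-values, and of 47 named gene values 1 changed sign: the log2 fold change of SDHC in pregnancy versus anestrus was 0.10 without anestrus 2 and pregnancy 3, the libraries at the ends of the principal components, an alternative chosen after seeing the data. Over all genes, where edgeR called 0, DESeq2 called 15 for estrus over anestrus, 29 for pregnancy over estrus, 30 for pregnancy over anestrus and 57 over the 3 stages, and the authors' deposited table lists 31, 23 and 36 for the 3 comparisons in this order. Leaving out 1 library gave 0 to 2 genes for estrus over anestrus (2 without estrus 3), 0 to 1 for pregnancy over estrus (1 without pregnancy 3) and 0 to 1 over the 3 stages (1 without estrus 3). The median log2 fold change of the subunits ranged over -0.023 (without estrus 2) to 0.28 for estrus over anestrus, -0.38 to -0.060 for pregnancy over estrus and -0.21 to 0.041 (without pregnancy 3) for pregnancy over anestrus when 1 library was left out, and without anestrus 2 it was 0.0049 for the last of these. That one also turned positive under library size alone (0.039), limma-voom with quality weights (0.031), and without anestrus 2 and pregnancy 3 (0.16), and the cause was not tested except that library size alone moved the median of all genes by 0.13. With identifiers summed the mean share over 9 libraries was 0.707% for COX6B2, 0.118% for COX7B2 and 66.5% for ATP5MC2, against 1.22%, 0.352% and 60.5% read at 1 identifier. Deviations from the stage mean had correlations of -0.03 to 0.26 between same-numbered libraries of different stages. Between differently numbered ones the correlations were -0.27 to 0.14. Whether replicate numbers mark a shared animal or batch was not tested. With a replicate block the medians were 0.10, -0.24 and -0.12 in the 3 comparisons, with 0 genes called in each, and 11 subunits had an unadjusted p under 0.05 for pregnancy over estrus, against 2 without the block. Levels per coding length were not run. Depth limits the low isoforms most: COX4I2 in pregnancy 3 rested on 1 count.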
